A study of Homo sapiens with 8 samples.

Results

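CDK inhibitor genes encode the proteins that hold cyclin-dependent kinases, the enzymes that drive the cell cycle, in check. The 8 genes CDKN1A, CDKN1B, CDKN1C, CDKN2A, CDKN2B, CDKN2C, CDKN2D and CDKN3 were chosen by symbol, and their probes by the transcript identifier printed on the array. All 8 genes were found, with 11 probes. All 11 probes passed the filter on dim signals, whereas 16955 of the 22428 named genes on the array had a probe that passed. CDKN1B, CDKN2A and CDKN3 had 2 probes each, and the brighter of the pair by its mean over all arrays stands for the gene.

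The genes fall into 3 kinds. CDKN1A, CDKN1B and CDKN1C encode p21, p27 and p57, the CIP/KIP proteins, which bind complexes of a kinase with its cyclin. CDKN2A, CDKN2B, CDKN2C and CDKN2D encode the INK4 proteins p16, p15, p18 and p19, which bind CDK4 and CDK6 and so keep the retinoblastoma protein unphosphorylated. CDKN2A also encodes the protein ARF from another reading frame. CDKN3 encodes a phosphatase that removes an activating phosphate from CDKs, and its transcript is known to be most abundant in dividing cells.

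OVSAHO and KURAMOCHI are established lines from serous ovarian carcinoma. Each was cultured with simvastatin, a statin that blocks HMG-CoA reductase and thereby the mevalonate pathway, or with L-778123, which blocks the farnesyl and geranylgeranyl transferases that attach lipids made by that pathway to proteins. The 4 groups of 2 one-color arrays served to ask which genes respond to simvastatin other than through these transferases. No untreated culture was analysed here, so every drug value below is simvastatin against L-778123 and does not tell which of the drugs acted on a gene. How much drug was given, and for how long, is not given in the sources used here for these cultures. Nothing in the labels says that the 2 arrays of a group came from separate cultures, so p-values measure only the spread between these samples, which may be technical.

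All 8 arrays lay on 1 slide. Between 51.8% and 57.5% of 58162 probes were well above background on an array, and replicate arrays correlated at 0.995 to 0.996 over the probes that passed. All 8 markers of serous epithelium, such as PAX8, WT1 and EPCAM, were well above background on every array, but their levels differed between groups. Their summed signal in OVSAHO, in multiples of the array's 75th percentile, was 514 to 524 with simvastatin and 621 to 667 with L-778123. In KURAMOCHI it was 334 to 348 with simvastatin and 625 to 646 with L-778123. Levels below are log2 signals relative to the array's 75th percentile, which lay at an intensity of 324 to 437, so 0 is the 75th percentile of an array. A level belongs to its probe and is compared between groups only. A gene was called at an adjusted p under 0.05 (limma, Benjamini-Hochberg over 33753 probes) and a fold of at least 2. The RNA came from whole cultures, in which fewer cells of a kind and less RNA per cell cannot be told apart.

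In OVSAHO cells, CDKN1A, CDKN1C and CDKN2B were called higher with simvastatin than with L-778123, and CDKN3 was called lower. In KURAMOCHI cells, CDKN1A and CDKN1C were called higher and no member was called lower. CDKN1A, CDKN1C, CDKN2C and CDKN2D had a drug contrast that was higher in OVSAHO than in KURAMOCHI beyond the replicate error. For CDKN2C and CDKN2D this difference was under the fold of 2. That of CDKN2C did not pass without the filter on dim signals (limma, adjusted p = 0.068). CDKN2C, CDKN1C and CDKN2D were the members called between the lines, all 3 higher in OVSAHO.

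**Figure D1:**
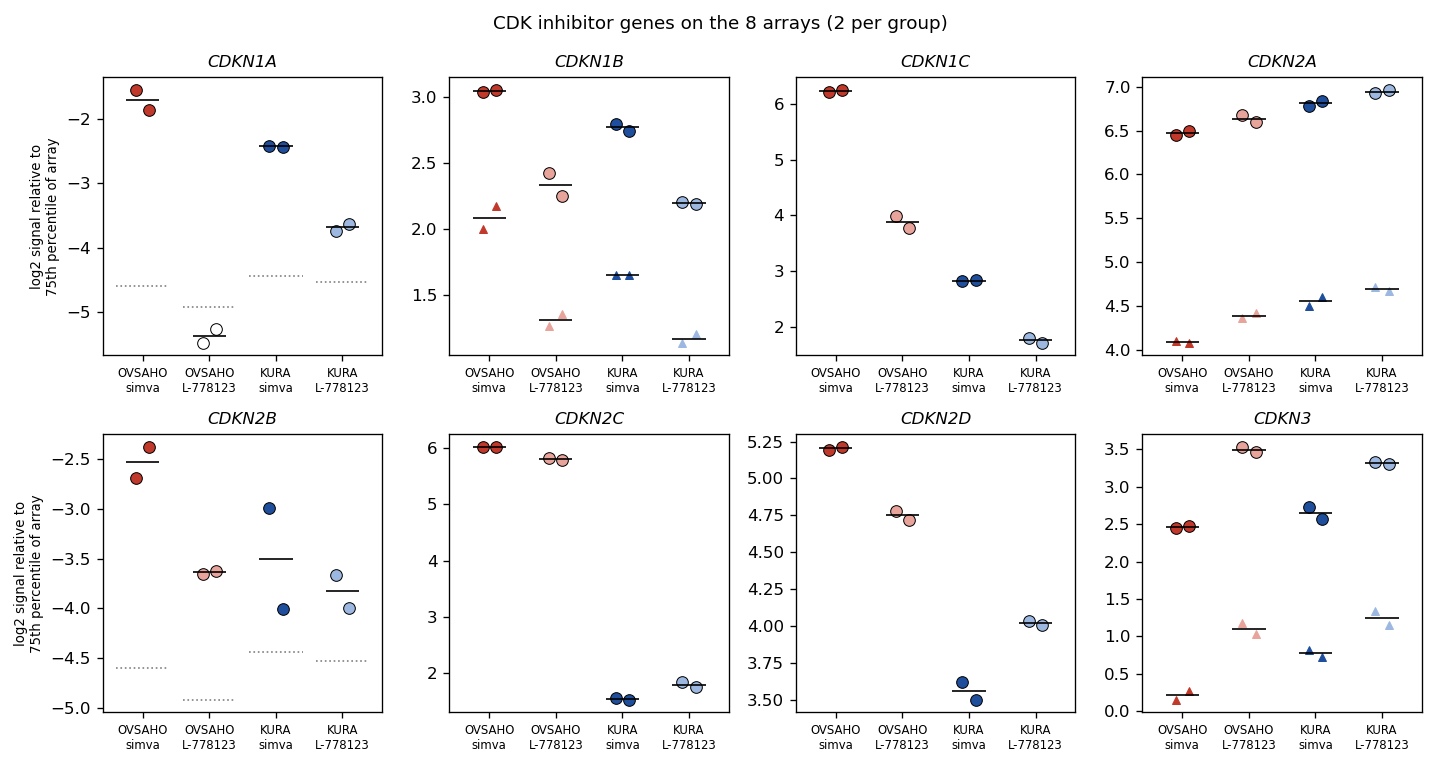
Log2 signal relative to the 75th percentile of the array (y axis, own scale per panel) for each CDK inhibitor gene in the 4 groups (x axis), with 1 point per array, circles for the brighter probe, triangles for the other probe, open circles for signals not well above background, black bars for group means of 2 arrays, and dotted lines, drawn in the CDKN1A and CDKN2B panels, for the mean lowest signal well above background. CDKN1A in OVSAHO with L-778123 lies below its dotted line, CDKN2C separates the lines by about 4.24 units, and the CDKN2B arrays of KURAMOCHI with simvastatin lie 1 unit apart.

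Among the CIP/KIP genes, CDKN1A, a gene induced by DNA damage and many other stresses, had the largest measured drug contrast of the 8 members in both lines. With simvastatin its levels were -1.54 and -1.86 in OVSAHO and -2.41 and -2.43 in KURAMOCHI. With L-778123 they were -5.48 and -5.27 in OVSAHO and -3.74 and -3.62 in KURAMOCHI. Both OVSAHO arrays with L-778123, at intensities of 9.78 and 10.6, were not well above background, and the groups did not overlap in either line. CDKN1A was at least 9.29-fold higher with simvastatin in OVSAHO (adjusted p = 3.21e-05 for the measured difference, dim signals included). For this bound each dim array entered at its lowest signal counted as well above background, or at the signal of the probe where that was higher. In KURAMOCHI it was 2.39-fold higher, a log2 difference of 1.26 (SE 0.13, 95% interval 0.94 to 1.58, adjusted p = 0.0017).

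The measured drug contrast of CDKN1A was 3.67 on the log2 scale in OVSAHO, and it exceeded that in KURAMOCHI by 2.41 (SE 0.18, adjusted p = 0.00106). With dim signals set to the lowest signal well above background of the array, this difference was 1.96 (SE 0.23, adjusted p = 0.0027). From the highest to the lowest group the order was OVSAHO with simvastatin, KURAMOCHI with simvastatin, KURAMOCHI with L-778123 and OVSAHO with L-778123. Each step in that order passed the test. With simvastatin CDKN1A was 0.72 higher in OVSAHO on the log2 scale (adjusted p = 0.00315). With L-778123 it was at least 2.36-fold higher in KURAMOCHI (adjusted p = 7.43e-05 for the measured difference). Because the 2 directions differ, the line difference of CDKN1A averaged over drugs, -0.49 (adjusted p = 0.0032), describes neither drug. After normexp, another background correction, the drug contrasts of CDKN1A were 1.45 in OVSAHO and 0.59 in KURAMOCHI, the latter under the fold of 2, and both then below those of CDKN1C (2.27 and 1.02).

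The promoters of CDKN1A and CDKN3 are shown because these genes had the highest and the lowest measured drug contrast in both lines. That of CDKN1B is shown because this gene, too, was higher with simvastatin in both lines, though by less than 2-fold. Each is the 250 bases before a transcript start in RefSeq on GRCh38.p14, all 3 on the plus strand, printed 5′ to 3′ with matches in capitals on either strand. The windows are chr6:36678464-36678713 for CDKN1A, chr12:12717118-12717367 for CDKN1B and chr14:54396757-54397006 for CDKN3.
CDKN1A: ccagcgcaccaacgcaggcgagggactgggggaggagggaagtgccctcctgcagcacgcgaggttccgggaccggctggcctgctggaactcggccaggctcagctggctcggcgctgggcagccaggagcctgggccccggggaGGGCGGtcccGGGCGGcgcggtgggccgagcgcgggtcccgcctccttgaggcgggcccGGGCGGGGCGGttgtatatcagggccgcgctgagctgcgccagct
CDKN1B: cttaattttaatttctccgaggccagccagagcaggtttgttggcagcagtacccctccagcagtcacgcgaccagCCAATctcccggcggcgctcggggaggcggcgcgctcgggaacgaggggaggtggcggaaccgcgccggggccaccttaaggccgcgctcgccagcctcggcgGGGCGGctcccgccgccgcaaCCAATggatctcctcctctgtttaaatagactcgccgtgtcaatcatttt
CDKN3: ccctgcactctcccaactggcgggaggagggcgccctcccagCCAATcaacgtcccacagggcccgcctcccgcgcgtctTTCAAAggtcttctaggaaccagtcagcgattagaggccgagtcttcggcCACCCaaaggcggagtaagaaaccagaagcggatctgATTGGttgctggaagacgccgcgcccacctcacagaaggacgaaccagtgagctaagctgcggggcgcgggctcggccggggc

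The motifs searched on both strands, with overlaps allowed, were the GC box (letters GGGCGG), the CCAAT box, the CHR element of cell cycle genes (letters TTTGAA), the CACCC box, the E2F site (letters TTTCCCGC or letters TTTGGCGC) and the TATA box (letters TATAAA). The CDKN1A window held 4 GC boxes and no match to the others, with 2 of the boxes overlapping near the start. The CDKN3 window held 2 CCAAT boxes, 1 CHR element and 1 CACCC box and no GC box. The CDKN1B window held 1 GC box and 2 CCAAT boxes. Of 35116 promoter windows of the same length, 42.6% held a GC box, 32.0% a CCAAT box, 13.3% a CHR element, 54.7% a CACCC box and 10.7% a TATA box, and the E2F letters were held by 1.39% in the first form and 0.55% in the other. A match is only a run of letters, and 7 of the 8 members had a window in the table, with CDKN1C the member without one.

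CDKN1B, whose protein p27 is controlled mainly through its degradation, was higher with simvastatin in both lines by less than 2-fold. Its levels in OVSAHO were 3.04 and 3.06 with simvastatin and 2.43 and 2.25 with L-778123. In KURAMOCHI they were 2.80 and 2.75 with simvastatin and 2.21 and 2.19 with L-778123. Neither line showed an overlap between the drugs. The difference was 0.71 in OVSAHO (SE 0.07, adjusted p = 0.000884) and 0.57 in KURAMOCHI (SE 0.07, adjusted p = 0.00371) on the log2 scale. The 2 lines did not differ in this contrast by the test, with a difference of 0.14 and a 95% interval of -0.12 to 0.40 (adjusted p = 0.401). The other CDKN1B probe gave 0.77 and 0.48. CDKN1B was 0.27 higher in OVSAHO than in KURAMOCHI with simvastatin (adjusted p = 0.0175), whereas with L-778123 the difference of 0.14 did not pass (adjusted p = 0.149).

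CDKN1C, an imprinted gene expressed mainly from the maternal copy, differed both between drugs and between lines. Its levels in OVSAHO were 6.21 and 6.25 with simvastatin and 3.99 and 3.77 with L-778123. The KURAMOCHI levels were 2.82 and 2.85 with simvastatin and 1.81 and 1.72 with L-778123. All 4 OVSAHO arrays lay above all 4 KURAMOCHI arrays. Simvastatin gave a signal 5.09-fold higher in OVSAHO (log2 2.35, SE 0.09, adjusted p = 3.56e-05) and 2.10-fold higher in KURAMOCHI (log2 1.07, SE 0.09, adjusted p = 0.000829). The contrast in OVSAHO was the greater by 1.28 on the log2 scale (SE 0.12, adjusted p = 0.00212). OVSAHO exceeded KURAMOCHI 10.5-fold with simvastatin and 4.33-fold with L-778123, and 6.74-fold averaged over drugs (log2 2.75, SE 0.06, adjusted p = 4.25e-07).

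Of the INK4 genes, CDKN2A lay far above the 75th percentile in every group and on its brighter probe did not pass the test between drugs in either line. The levels of the brighter probe in OVSAHO were 6.45 and 6.50 with simvastatin and 6.68 and 6.60 with L-778123. In KURAMOCHI they were 6.78 and 6.84 with simvastatin and 6.92 and 6.96 with L-778123. The drugs did not overlap in either line, yet the differences were small, -0.16 in OVSAHO (95% interval -0.31 to -0.01, adjusted p = 0.0704) and -0.13 in KURAMOCHI (95% interval -0.28 to 0.02, adjusted p = 0.149). The other CDKN2A probe, designed on a different transcript of the gene, fell by 0.30 on the log2 scale with simvastatin in OVSAHO (adjusted p = 0.0107). Both probes were lower in OVSAHO than in KURAMOCHI, by a log2 difference of -0.32 (adjusted p = 0.000679) and -0.38 (adjusted p = 0.000355). Which of the p16 and ARF transcripts each probe detects was not determined.

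CDKN2B, known to respond to TGF-beta, lay below the 75th percentile on every array and was the called member with the widest interval. Its signals lay 0.36 to 2.21 above the array's lowest signal well above background, on the log2 scale. Its levels in OVSAHO were -2.69 and -2.38 with simvastatin and -3.65 and -3.62 with L-778123. The KURAMOCHI levels were -2.99 and -4.007 with simvastatin and -3.66 and -3.997 with L-778123. With simvastatin CDKN2B was 0.97 higher in OVSAHO than in KURAMOCHI on the log2 scale, under the fold of 2 (adjusted p = 0.0406). The line difference did not pass with L-778123 (0.19, adjusted p = 0.634) or averaged over drugs (0.58, adjusted p = 0.0638). The drugs overlapped in KURAMOCHI and did not overlap in OVSAHO. CDKN2B was 2.16-fold higher with simvastatin in OVSAHO (log2 1.11, SE 0.33, 95% interval 0.28 to 1.93, adjusted p = 0.0377), a call that did not hold without the filter (adjusted p = 0.0783) or by the methods' analysis of variance (adjusted p = 0.286). It was lost without any 1 of the 4 OVSAHO arrays (adjusted p of 0.0792 to 0.15) or of the KURAMOCHI arrays with L-778123 (0.0551), and held without either KURAMOCHI array with simvastatin (0.00569). In KURAMOCHI the difference was 0.33 (95% interval -0.49 to 1.15, adjusted p = 0.497), and the lines did not differ in it by the test (0.78, adjusted p = 0.289), except without KURAMOCHI simvastatin replicate 1 (1.29, adjusted p = 0.0362).

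CDKN2C was the member that differed most between the lines. Its levels in OVSAHO were 6.01 on both arrays with simvastatin and 5.82 and 5.79 with L-778123. In KURAMOCHI they were 1.56 and 1.53 with simvastatin and 1.85 and 1.76 with L-778123. OVSAHO exceeded KURAMOCHI 18.8-fold averaged over drugs (log2 4.24, SE 0.04, adjusted p = 6.15e-08), with 22.1-fold under simvastatin and 16.0-fold under L-778123. Between drugs CDKN2C moved little and in opposite directions, 0.21 higher with simvastatin in OVSAHO (adjusted p = 0.0295) and lower by a log2 difference of -0.26 in KURAMOCHI (adjusted p = 0.0214). These contrasts differed by 0.46 (SE 0.08, adjusted p = 0.0133). With 1 array left out the adjusted p of the first was 0.0373 to 0.101 and of the second 0.0348 to 0.0969, and that of their difference 0.0279 to 0.0484. Without the filter on dim probes none of the 3 passed (adjusted p of 0.122, 0.0977 and 0.068), nor did the first pair in fits on only the groups compared (0.0723 and 0.0661).

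CDKN2D behaved likewise, with larger drug contrasts and a smaller line difference. Its levels in OVSAHO were 5.19 and 5.21 with simvastatin and 4.78 and 4.72 with L-778123. KURAMOCHI cells gave 3.62 and 3.50 with simvastatin and 4.03 and 4.003 with L-778123. Simvastatin arrays were thus the higher pair in OVSAHO and the lower pair in KURAMOCHI. The drug contrast was 0.45 in OVSAHO (SE 0.06, adjusted p = 0.00267) and -0.46 in KURAMOCHI (SE 0.06, adjusted p = 0.00484), and the 2 differed by 0.91 (SE 0.09, adjusted p = 0.00243). CDKN2D was 2.28-fold higher in OVSAHO averaged over drugs (log2 1.19, SE 0.05, adjusted p = 2.78e-06), 3.13-fold with simvastatin and 1.66-fold with L-778123.

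CDKN3 was lower with simvastatin on both of its probes in both lines, and each of these 4 differences passed the test. On the brighter probe its levels in OVSAHO were 2.45 and 2.47 with simvastatin and 3.53 and 3.46 with L-778123. The KURAMOCHI levels were 2.73 and 2.57 with simvastatin and 3.33 and 3.30 with L-778123. The drugs did not overlap in either line. CDKN3 was 2.05-fold lower with simvastatin in OVSAHO (log2 -1.03, SE 0.07, adjusted p = 0.000214), just past the fold of 2 and at -0.999 without OVSAHO L-778123 replicate 1, and lower by a log2 difference of -0.66 in KURAMOCHI (SE 0.07, adjusted p = 0.00214). The other probe gave -0.89 and -0.47. The contrast in OVSAHO lay below that in KURAMOCHI by 0.38 at the threshold of the test (log2 -0.38, adjusted p = 0.0499, and 0.0437 to 0.124 with 1 array left out), and on the other probe this difference was -0.42 (adjusted p = 0.0762). No line difference of CDKN3 passed the test on the brighter probe (log2 -0.0041, 95% interval -0.13 to 0.12, adjusted p = 0.945), whereas the other probe was lower in OVSAHO (log2 -0.35, adjusted p = 0.00375).

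**Figure D2:**
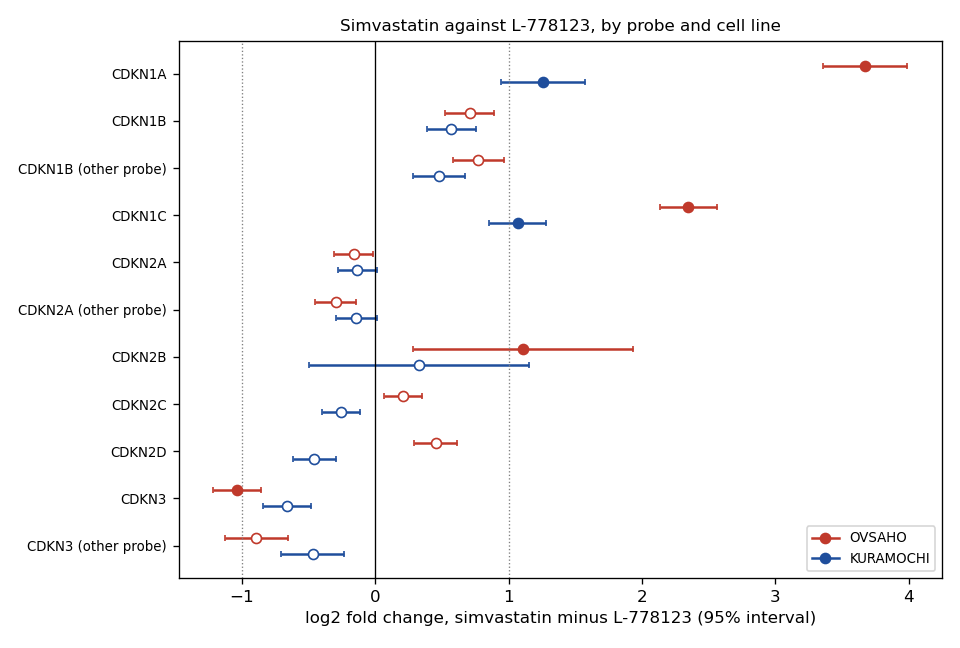
Log2 fold change of simvastatin against L-778123 (x axis, higher with simvastatin to the right) for the 11 probes (y axis), in OVSAHO (red) and KURAMOCHI (blue), with 95% intervals from limma over 8 arrays. Filled points were called, open points were not, and dotted lines mark a fold of 2. The CDKN1A point of OVSAHO, at 3.67, rests on arrays with L-778123 that were not well above background. CDKN2C and CDKN2D lie on opposite sides of 0 in the 2 lines.

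Over the 8 members, 3 were called higher and 1 lower with simvastatin in OVSAHO, where 5.69% of all genes were called higher and 5.89% lower. At an adjusted p alone 6 members were higher and 1 was lower, where 26.4% and 27.5% of all genes were. In KURAMOCHI 2 members were called higher and 0 lower, where 2.44% and 2.95% of all genes were, and at an adjusted p alone 3 were higher and 3 lower, where 17% and 18.4% were. The median contrast of the members was 0.58 in OVSAHO against 0.014 over all genes tested, and 0.10 in KURAMOCHI against 0.011. All 8 members in OVSAHO and 7 of 8 in KURAMOCHI had arrays that did not overlap between drugs, which held for 80.9% and 74.3% of all genes. All 3 CIP/KIP members passed the test upwards in both lines, and of the 4 INK4 members 3 did in OVSAHO and 0 in KURAMOCHI. A difference between these kinds was not tested.

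The drug contrasts differed between lines for 2 members called higher in OVSAHO, CDKN1A and CDKN1C, and 0 called lower, where 4.29% and 3.3% of all genes were. At an adjusted p alone 4 were higher and 1, CDKN3, was lower, where 13.5% and 14% of all genes were. Between lines, averaged over drugs, 3 members were called higher in OVSAHO and 0 lower, where 18.3% and 16.4% of all genes were called. In either direction 34.8% of all genes were called, so a difference between these lines was common, and the members' share lay near it. At an adjusted p alone 4 members were higher and 2 lower in OVSAHO, where 42.4% and 40.5% were. The median line difference was 0.39 for the members and 0.027 for all genes tested. With simvastatin alone CDKN1C, CDKN2C and CDKN2D were called, all 3 higher in OVSAHO, where 18.9% of genes were called higher and 17.3% lower, and with L-778123 alone CDKN1C and CDKN2C were called higher and CDKN1A lower, where 17.9% and 16.3% were. The lines did not overlap for all 8 members with either drug, which held for 90.3% of genes with simvastatin and 88.4% with L-778123.

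**Figure D3:**
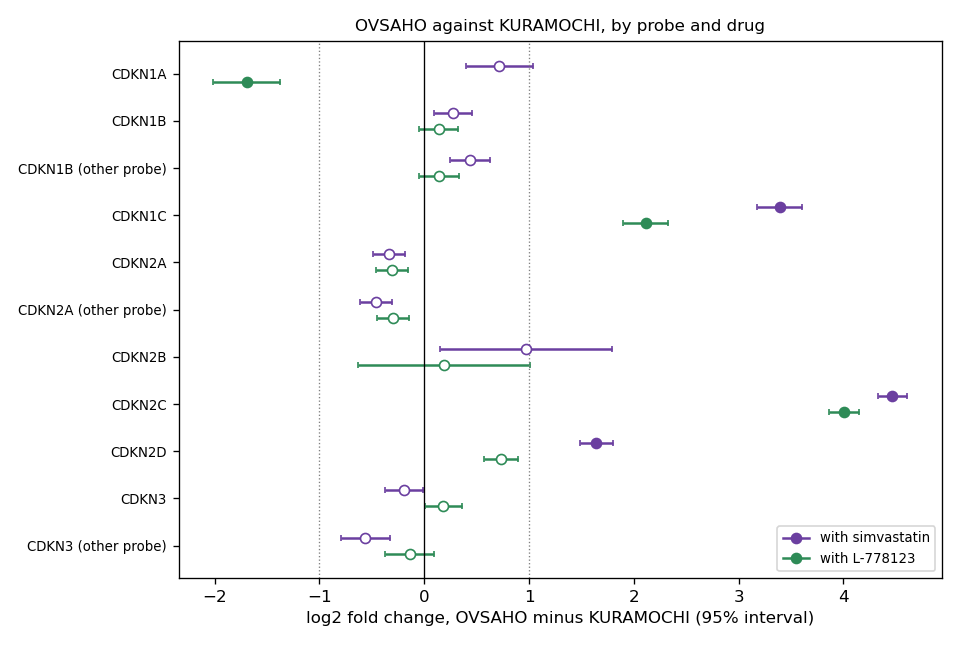
Log2 fold change of OVSAHO against KURAMOCHI (x axis, higher in OVSAHO to the right) for the 11 probes (y axis) with simvastatin (purple) and with L-778123 (green), with 95% intervals from limma over 8 arrays. Filled points were called, open points were not, and dotted lines mark a fold of 2. CDKN2C lies at 4.47 and 4.004, CDKN1C at 3.39 and 2.11, and CDKN1A changes side, from 0.72 to -1.69.

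Of the CDKs and cyclins that the inhibitors act on, 8 of 11 tested genes were called lower with simvastatin in OVSAHO. In KURAMOCHI 3 were called lower, and 0 were called higher in either line. Of all genes tested, 5.89% were called lower in OVSAHO and 2.95% in KURAMOCHI, and 5.69% and 2.44% higher. CCNE2, a cyclin of CDK2, had log2 contrasts of -2.07 in OVSAHO (adjusted p = 7.88e-05) and -1.71 in KURAMOCHI (adjusted p = 0.000373). CDK1 had -1.42 and -1.17, and CCNA2 -1.51 and -1.05, all 4 called. CCND1, a cyclin of CDK4 and CDK6, was called in OVSAHO only, at -2.04, against -0.57 in KURAMOCHI. These contrasts differed by -1.47 (adjusted p = 0.000906). CCND3, another such cyclin named after its values were seen, was higher in OVSAHO under the fold of 2 (0.51, adjusted p = 0.00124). It had -0.025 in KURAMOCHI (adjusted p = 0.78), and CCND2 did not pass the filter. Of the RB family, RBL1 was called lower in KURAMOCHI (-1.26) and was lower under the fold of 2 in OVSAHO (-0.85, adjusted p = 0.00276), with 0.41 between the contrasts (adjusted p = 0.147). The contrasts of RB1 were 0.0029 (adjusted p = 0.978) and 0.10 (adjusted p = 0.328). RB1 was lower in OVSAHO than in KURAMOCHI by a log2 difference of -1.76 (adjusted p = 1.05e-06).

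Of the stress response genes, 4 of 22 tested were called higher and 1 lower in OVSAHO, where 5.69% and 5.89% of all genes were. In KURAMOCHI 1 was called higher and 0 lower, where 2.44% and 2.95% of all genes were. BBC3, which encodes the cell death protein PUMA, was the largest, with log2 contrasts of 3.72 in OVSAHO (adjusted p = 1.28e-05) and 1.17 in KURAMOCHI (adjusted p = 0.00037). BTG2 was called higher in OVSAHO, at 1.53, with 0.11 in KURAMOCHI, and GADD45A was called lower in OVSAHO, at -1.25. At an adjusted p alone 13 genes of the list were higher and 3 lower in OVSAHO, where 26.4% and 27.5% of all genes were. In KURAMOCHI 9 were higher and 4 lower, where 17% and 18.4% were. The medians of the list were 0.24 and 0.13.

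Among 12 parts of the ubiquitin ligases that degrade p21, p27 and p57, 3 were called lower in OVSAHO and 2 in KURAMOCHI, and 0 higher. Of all genes, 5.89% and 2.95% were called lower. SKP2, the subunit that recognizes p27, had log2 contrasts of -1.12 in OVSAHO (adjusted p = 7.69e-05) and -1.13 in KURAMOCHI (adjusted p = 0.000241), with 0.0068 between them (adjusted p = 0.961). DTL, which recognizes p21 on replicating DNA, had -2.93 and -1.26, both called. CKS1B, the partner of SKP2, was called in OVSAHO, at -1.06, and had -0.41 in KURAMOCHI. The medians of this list, -0.16 and -0.10, lay nearer 0 than these 3 genes.

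Of 17 transcription factors known to act on CDK inhibitor genes, 7 were called higher in OVSAHO and 3 in KURAMOCHI, and 0 lower. Of all genes, 5.69% and 2.44% were called higher. The 7 include ETS1, which was not well above background on any OVSAHO array, so that its OVSAHO difference is not a measured one. KLF2, which induces CDKN1A in some cells, had log2 contrasts of 5.58 in OVSAHO (adjusted p = 3.36e-05) and 4.74 in KURAMOCHI (adjusted p = 0.00018), where 1 of the 2 arrays with L-778123 was not well above background. KLF6 and ID1 were called in OVSAHO, at 3.29 and 2.37, and had 0.25 and 0.18 in KURAMOCHI. TBX2, a repressor of CDKN1A and CDKN2A, was called in both lines, at 1.18 and 1.81. Of 7 polycomb genes, whose proteins silence the INK4 genes, 0 were called in either line. At an adjusted p alone 3 passed in OVSAHO and 2 in KURAMOCHI. Of all genes, 26.4% were higher and 27.5% lower at that threshold in OVSAHO, and 17% and 18.4% in KURAMOCHI.

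**Figure D4:**
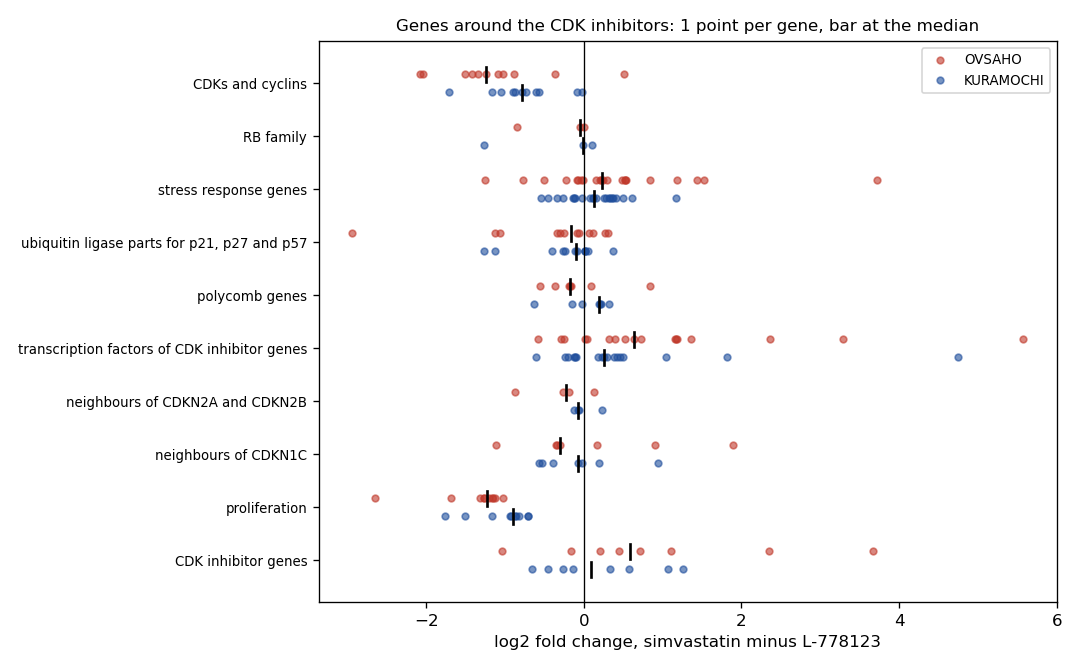
Log2 fold change of simvastatin against L-778123 (x axis) for each tested gene of 9 lists and of the CDK inhibitor genes (y axis), in OVSAHO (red, upper row of a list) and KURAMOCHI (blue, lower row), with 1 point per gene and a black bar at the list's median. CDKs and cyclins and proliferation genes lie mostly to the left of 0, with medians of -1.24 and -1.23 in OVSAHO, and the CDK inhibitor genes spread on both sides in both lines.

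Of the neighbours of CDKN2A and CDKN2B on the chromosome, 0 of 4 tested genes were called between drugs. Of all genes, 5.69% were called higher and 5.89% lower in OVSAHO, and 2.44% and 2.95% in KURAMOCHI. MTAP had log2 contrasts of -0.19 (adjusted p = 0.0752) and -0.06 (adjusted p = 0.566), and CDKN2B-AS1, the noncoding RNA that runs opposite to CDKN2B, had -0.27 (adjusted p = 0.145) and 0.23 (adjusted p = 0.233). CDKN2B-AS1 was lower in OVSAHO than in KURAMOCHI by a log2 difference of -1.43 (adjusted p = 2.63e-05). Of 7 neighbours of CDKN1C, PHLDA2, an imprinted growth regulator, was called higher in OVSAHO (1.89), and KCNQ1OT1, the noncoding RNA of that imprinted region, was called lower (-1.12). In KURAMOCHI 0 of the 7 were called. KCNQ1OT1 was lower there too (-0.56, adjusted p = 0.0202), and its contrasts did not pass as different (-0.55, adjusted p = 0.0739), whereas those of PHLDA2 did (2.28, adjusted p = 0.000246). KCNQ1, named after its values were seen, was at least 94.2-fold higher in OVSAHO than in KURAMOCHI with simvastatin and at least 129-fold with L-778123, as it was not well above background on any KURAMOCHI array. CDKN1C itself was 10.5-fold and 4.33-fold higher in those comparisons.

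Proliferation genes were lower with simvastatin, as CDKN3 was, while the CIP/KIP genes were higher. All 10 tested were called lower with simvastatin in OVSAHO, where 5.89% of all genes were. In KURAMOCHI 3 were called lower and all 10 were lower at an adjusted p alone, where 2.95% and 18.4% of all genes were. RRM2, TYMS, MCM2 and PCNA, which serve DNA synthesis, had log2 contrasts of -2.65, -1.68, -1.31 and -1.27 in OVSAHO and between -1.76 and -0.70 in KURAMOCHI. The summed signal of the list, in multiples of the array's 75th percentile, was 97.7 to 99.6 with simvastatin and 232 to 234 with L-778123 in OVSAHO, and 64.5 to 64.8 and 125 to 132 in KURAMOCHI. Their part in the results for the CDK inhibitor genes was not tested.

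Markers of other cell types differed between lines and, for 1 of them, between drugs. Of 6 fibroblast markers, 0 reached a signal well above background throughout an OVSAHO group, and 2, COL1A1 and COL3A1, did in KURAMOCHI, with COL1A2, DCN and LUM below in every group. The 4 OVSAHO arrays had a summed signal for them of 0.0826 to 0.108, and the 4 KURAMOCHI arrays one of 2.42 to 3.26, in multiples of the 75th percentile. Of 4 leukocyte markers 3 were well above background in every group, with summed signals of 1.65 to 2.03 in OVSAHO and 0.951 to 1.07 in KURAMOCHI. Of 3 endothelial markers CDH5 and VWF were well above background in every group and PECAM1 in none. Their summed signal in OVSAHO was 0.213 to 0.252 with simvastatin and 0.839 to 0.883 with L-778123, and in KURAMOCHI 0.545 to 0.677 and 0.678 to 0.729. VWF, named after its values were seen, was called lower with simvastatin in OVSAHO (log2 -3.30, adjusted p = 2.43e-05), with -0.15 in KURAMOCHI and -3.15 between the contrasts (adjusted p = 0.000323). The part of these markers in the results for the CDK inhibitor genes was not tested.

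Each gene was centred on its own mean. The genes closest to a called member in pattern over the 4 group means were sought among the named genes that passed the filter. None is given for CDKN1A, since 1 of its 4 means was not well above background. For CDKN1C they were, with the root mean square difference on the log2 scale, KLK7 (0.16), CPAMD8 (0.19) and DEPTOR (0.20), and for CDKN2C CAMK2N2 (0.090), ZNF470 (0.11) and PID1 (0.11). For CDKN2D they were ARHGDIA (0.0098), NUDT18 (0.035) and BAIAP2L1 (0.042). CDKN3 was nearest to MKKS (0.022), TMEM177 (0.036) and C1orf74 (0.040), and CDKN2B to RAD21-AS1 (0.029), VIM (0.031) and SCARNA22 (0.053). These distances describe 4 means each and grow with the size of a member's differences, so they do not rank the members.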

How the data were processed

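One-color arrays, 2 in each of 4 groups, measured total RNA of the 2 lines after culture with either drug, and the groups follow the deposited labels. The authors scanned the arrays with Feature Extraction 11.5.1.1 and deposited the processed signal of each spot, a linear intensity corrected for background and not normalized between arrays, and a table of intensity after normalization. The number of arrays limits the precision.

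Outlier spots (58 to 99 per array) were dropped, as were 39 of 58201 probes that lost all spots somewhere. Each array's 75th percentile was subtracted on the log2 scale after averaging the spots of each probe. Probes entered the tests, 33753 in all, when some group had both arrays well above background. No spot was saturated. Symbols came from the transcript identifiers on the arrays through a RefSeq table, from which 24768 of 50069 identifiers were named. limma 3.58.1 in R 4.3.3 fitted 1 mean per group with a shared spread (lmFit, eBayes, Benjamini-Hochberg). On simulated data with 200 probes changed by 1.5 on the log2 scale in the OVSAHO contrast, among 33753 probes, 82.5% were called and 5 others were called falsely. Plots used Python 3.11.15 with matplotlib 3.10.9.

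The 8 members, the 9 pathway lists and the 4 marker lists were chosen with earlier results of these data known. Named were all members and, from each list, up to 4 genes called between drugs, ranked by their contrast, with RB1, SKP2, MTAP and CDKN2B-AS1, and for each called member the 3 genes of the closest pattern, which are not given for CDKN1A because 1 of its groups was dim. Some genes under this rule are not reported here. The alternatives tried were other filters, normexp with an offset of 50 on the median spot and background intensity, quantile normalization, the percentile taken over bright probes only, a floor, the table of the authors, fits on the groups compared, a replicate block, the two-way analysis of variance that the methods name, other fold thresholds, the median over a gene's probes, each drug alone and each array left out.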

Additional observations from a re-analysis of the deposited data

Results flagged for a closer look

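Of the 8 members, 5 had a drug contrast that differed between OVSAHO and KURAMOCHI by the interaction test (limma, adjusted over all probes), 4 upwards and 1 downwards, where 13.5% and 14% of all genes did. CDKN1A differed by 2.41, CDKN1C by 1.28, CDKN2D by 0.91 and CDKN2C by 0.46 on the log2 scale, each more positive in OVSAHO. The differences of CDKN2D and CDKN2C were under the fold of 2, and that of CDKN2C did not pass without the filter (adjusted p = 0.068). CDKN3 differed by -0.38, more negative in OVSAHO, with an adjusted p of 0.0437 to 0.124 when 1 array was left out. For CDKN2C and CDKN2D the contrasts had opposite signs in the 2 lines, and for CDKN1A, CDKN1C and CDKN3 the same sign and different sizes. The size for CDKN1A rests on OVSAHO arrays that were not well above background with L-778123, and was 0.86 after normexp.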

How the results depend on the processing

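The contrasts of the members and the counts of members called were recomputed under 23 alternatives, some of which cover only some contrasts. The pathway lists, markers, genes of the closest pattern and noncoding RNAs were not. Among values of single members, 626 kept their direction and their side of the threshold, 15 lost and 18 gained the call and 9 changed sign. The 626 include many whose direction could not change. Another filter, fold threshold or test keeps the measured difference, and leaving out an array changes the size of only those contrasts that use it. Counts of members called stayed within 1.5 times in 154 cases and moved further in 14. With no fold threshold the counts became 6 higher in OVSAHO, 3 lower in KURAMOCHI, 4 higher and 1 lower for the difference of the contrasts, and 2 lower between lines, and a fold of 1.5 gave 1 lower in KURAMOCHI. Normexp left 0 called lower in OVSAHO, 1 higher in KURAMOCHI and 1 higher for the difference, and the median over a gene's probes left 0 lower in OVSAHO. A filter on all 8 arrays, which leaves CDKN1A untested, left 1 higher in KURAMOCHI and 1 higher for the difference. With L-778123 alone, 1 member was called lower between lines. With 1 array left out, the count called lower in OVSAHO was 0 to 1, with 0 without OVSAHO L-778123 replicate 1, where CDKN3 had -0.999.

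The averaged line difference of CDKN1A was 0.027 after normexp and 0.72 with simvastatin alone, and that of CDKN3 was 0.18 with L-778123 alone and -0.044 to 0.036 with 1 array left out. The interaction of CDKN2A was -0.070 to 0.011 and the KURAMOCHI contrast of CDKN2B -0.18 to 0.83 with 1 array left out. Without KURAMOCHI simvastatin replicate 1 the interaction of CDKN2B was 1.29 (adjusted p = 0.0362). The cause was not tested. The OVSAHO contrast of CDKN2B was 0.62 after normexp and had an adjusted p of 0.286 by the analysis of variance.

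With the replicate number as a block, the counts stayed at 3 higher and 1 lower in OVSAHO and 2 higher in KURAMOCHI, and the interaction of CDKN3 had an adjusted p of 0.064. Same-numbered arrays deviated together at correlations of 0.00085 to 0.056 only, which does not settle whether they were prepared together. With 1 array left out, the lone array of a group is assumed to vary like the others, and fits on the groups compared alone give no interaction or averaged line value. The scalings moved the median of all probes by at most 0.091.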

Other observations

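The array also holds 6 probes named for long noncoding RNAs next to CDK inhibitor genes, looked at after the values were seen, of which 3 passed the filter. The one named for CDKN2C was well above background on all 8 arrays. Its levels in OVSAHO were 0.16 and 0.35 with simvastatin and 1.57 and 1.49 with L-778123, and in KURAMOCHI -3.18 and -3.13 with simvastatin and -2.56 and -2.34 with L-778123. It was lower with simvastatin by a log2 difference of -1.27 in OVSAHO (adjusted p = 0.000364) and -0.70 in KURAMOCHI (adjusted p = 0.00564), and higher in OVSAHO than in KURAMOCHI by 3.69 (adjusted p = 2.96e-07). CDKN2C was likewise higher in OVSAHO, by 4.24, whereas with simvastatin in OVSAHO it was higher, by 0.21. The one named for CDKN1C was well above background on 6 arrays, all but the 2 of OVSAHO with L-778123. It was at least 1.997-fold higher with simvastatin in OVSAHO (adjusted p = 0.0312) and higher by 2.42 on the log2 scale in KURAMOCHI (adjusted p = 0.0301). With simvastatin its levels were -3.65 and -4.20 in OVSAHO and -1.20 on both arrays in KURAMOCHI, and with L-778123 it was at least 2.46-fold higher in KURAMOCHI (adjusted p = 0.0126). CDKN1C was the higher in OVSAHO with both drugs. The one named for CDKN1B was well above background on the 2 arrays of OVSAHO with simvastatin alone. This probe passed the filter through that group alone, so that a higher signal there was fixed in advance and is given without a test. It was at least 2.53-fold higher there than with L-778123, and no KURAMOCHI array measured it above background. The adjusted p beside each of these bounds tests the measured difference, dim signals included.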
